A study of Homo sapiens with 9 samples.

Results

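The nuclear-encoded subunits of the mitochondrial respiratory chain and of ATP synthase were followed in KGN cells, a human granulosa cell tumour line that serves as a model of ovarian granulosa cells, with and without insulin. They were chosen by gene name: every row of the count table whose symbol belongs to the NDUFA, NDUFB, NDUFC, NDUFS or NDUFV series, SDHA to SDHD, the UQCR series, the COX4 to COX8 series or the ATP5 series, plus CYC1 and CYCS. The assembly factors of the NDUFAF series were left out. The rule gave 85 of the 15983 genes in the table: 36 for complex I, 4 for complex II, 9 for complex III, 1 for cytochrome c, 13 for complex IV, 17 for complex V and 5 related genes that are a paralogue, a near-identical copy or a regulator of a subunit. NDUFAB1, an acyl carrier protein that is also a complex I subunit, has no digit directly after its series letter and was left out by the rule.

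Wild-type KGN cells, grown in DMEM with fetal bovine serum, were fasted for 12 h and then received solvent (control), insulin at 0.5 µg/ml (the lower dose) or insulin at 1 µg/ml (the higher dose) for 72 h. Each group had 3 libraries of total RNA, numbered 1 to 3 as in their titles. Whether the replicates came from separate cultures is not given in the sources used here, so p-values measure the spread between these libraries, which may be technical. These are bulk libraries of 1 cell line, in which fewer cells of a type and less RNA per cell cannot be told apart.

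The respiratory chain sits in the inner mitochondrial membrane. Complexes I and II pass electrons from NADH and succinate to ubiquinone, complex III passes them on to cytochrome c, complex IV hands them to oxygen, and complex V uses the proton gradient built by complexes I, III and IV to make ATP. The complexes other than II are built from nuclear-encoded subunits together with a few subunits encoded in mitochondrial DNA, and none of the 13 protein-coding genes of mitochondrial DNA was analysed here. In granulosa cells the first step of steroid synthesis also takes place in mitochondria, and insulin is known as a regulator of energy metabolism.

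The promoters of these genes are known to carry sites for NRF1, for GABP (an ETS factor also called NRF2) and for YY1, so their sequences were searched on both strands for 1 exact word per factor. A promoter here is 250 bases before to 50 bases after a gene's start in RefSeq (GRCh38.p14), and 70 of the 85 genes had an entry. The NRF1 word, GCGCA then any base then GCGC, was found in 16 of the 70 (22.9%), in 13.1% of the 10288 genes tested for expression that had an entry, and in 6.98% of all 27305 entries. The ETS word CCGGAAGT was found in 12 of 70 (17.1%), against 9.89% of the tested genes and 4.95% of all. The YY1 word AAGATGGC was also found in 12 of 70 (17.1%), against 6.43% and 3.52%. At least 1 of these 3 words was present in 33 of 70 (47.1%), in 26.1% of the tested genes and in 13.9% of all. The GC box GGGCGG, a word of general promoters, was found in 44 of 70 (62.9%), below the 77.0% of the tested genes and above the 48.3% of all entries. None of the 4 words contains another, and a match is a description of the letters and not a bound site.

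Stretches from 5 promoters are shown, upstream of the start, picked because they hold an NRF1 or an ETS word, which is in capitals. The promoters of COX6A1, NDUFV2 and NDUFA5, whose differences are also described below, held a GC box but no NRF1, ETS or YY1 word. A link between these words and any difference was not tested. SDHA and SDHD code for complex II, UQCRQ for complex III, COX8A for complex IV and ATP5ME for complex V. They come from RefSeq, GRCh38.p14, and read 5′ to 3′ on the gene's strand, at chr5:218140-218319 (plus strand) for SDHA, chr11:112086743-112086812 (plus) for SDHD, chr5:132866562-132866621 (plus) for UQCRQ, chr11:63974570-63974619 (plus) for COX8A and chr4:674426-674511 (minus) for ATP5ME.
SDHA: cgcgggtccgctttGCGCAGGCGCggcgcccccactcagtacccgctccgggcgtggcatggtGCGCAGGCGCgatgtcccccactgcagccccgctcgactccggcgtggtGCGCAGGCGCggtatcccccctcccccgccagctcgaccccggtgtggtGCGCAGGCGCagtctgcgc
SDHD: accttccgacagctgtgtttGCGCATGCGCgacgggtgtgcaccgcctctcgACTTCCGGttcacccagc
UQCRQ: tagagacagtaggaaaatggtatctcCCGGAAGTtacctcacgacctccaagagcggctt
COX8A: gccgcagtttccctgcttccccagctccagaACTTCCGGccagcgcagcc
ATP5ME: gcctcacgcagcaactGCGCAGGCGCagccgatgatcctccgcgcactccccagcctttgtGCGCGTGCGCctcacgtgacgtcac

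The SDHA promoter held the NRF1 word 4 times, beginning 166, 117, 68 and 19 bases before the start, so that neighbours lie 49 bases apart each time. In SDHD an NRF1 word is followed by an ETS word on the opposite strand, in ATP5ME the NRF1 word occurs at 2 places, UQCRQ has an ETS word on its own strand, and COX8A has 1 on the opposite strand.

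Library totals ran from 18965722 to 20446405 counts, and the 85 genes took 0.632% to 0.675% of them. Counts are given below as CPM, the count scaled to a fixed library total and by a TMM factor, which makes libraries comparable for a gene. The cells carried the granulosa genes FOXL2 (26.2 ± 2.02 CPM, SD, n = 9), FSHR (18.1 ± 2.43 CPM) and AMH (12.5 ± 1.33 CPM). All 12 granulosa markers passed the filter, although INHA stood at 0.655 CPM. The theca markers CYP17A1 and INSL3 had 1 count each over all libraries. Of the other lists, 4 of 5 epithelial markers passed, with KRT18 at 1755 CPM and EPCAM at 7 counts in all. Of 6 fibroblast and smooth muscle markers 5 passed, with COL1A1 at 9024 CPM and ACTA2 at 405 CPM, and DES had 40 counts in all. Of 4 blood and immune markers 2 passed, with CD68 at 58 CPM, and of 3 endothelial markers 1 passed, KDR at 18.3 CPM. Summed CPM was 398 to 439 for the granulosa list and 9142 to 11240 for the fibroblast and smooth muscle list. The granulosa genes were therefore not the only markers present. 1 library stands apart, and not only in the genes described here. In lower dose replicate 1, the deviation of each gene from its own mean over the 9 libraries followed the GC content of its transcript (r = 0.611, rho = 0.588 across 82 genes), whereas r ran from -0.252 to 0.031 in the other 8 libraries. Over all 12607 genes with a GC value, r in that library was 0.387 (rho = 0.513), and r ran from -0.205 to 0.057 in the other 8. The trend was therefore not particular to the respiratory chain genes. Genes share the library, so these correlations are descriptions. Differences at the lower dose are therefore given with and without that library where they move, and the part of GC content in them was not tested.

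A minimum-count filter kept 82 of the 85 genes among 12665 tested. The 3 that did not pass were the testis-type isoforms COX6B2 (10 counts over 9 libraries) and COX7B2 (2 counts), and the ATP synthase paralogue ATP5MGL (22 counts). Their ubiquitous partners COX6B1 and COX7B had 14836 and 11106 counts. The muscle or condition-restricted isoforms COX4I2, COX6A2, COX7A1 and COX8C matched no row and were not analysed here.

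Levels between genes were compared as FPKM, which is CPM per kilobase of transcript, averaged over the 9 libraries. The 82 genes had a median of 51.8 FPKM, against 6.83 FPKM for all tested genes, and ranged from 2.79 FPKM (NDUFC2, a membrane arm subunit of complex I) to 366 FPKM (ATP5F1B, the catalytic beta subunit of ATP synthase). The median level was 45.5 FPKM in complex I, 42.2 in complex II, 59.1 in complex III, 88.7 in complex IV and 61.3 in complex V, and the mobile carrier CYCS stood at 15.9 FPKM. By deposited FPKM, levels differed most within complex I, the largest group with 36 genes, whose subunits are held in equal copies.

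**Figure D1:**
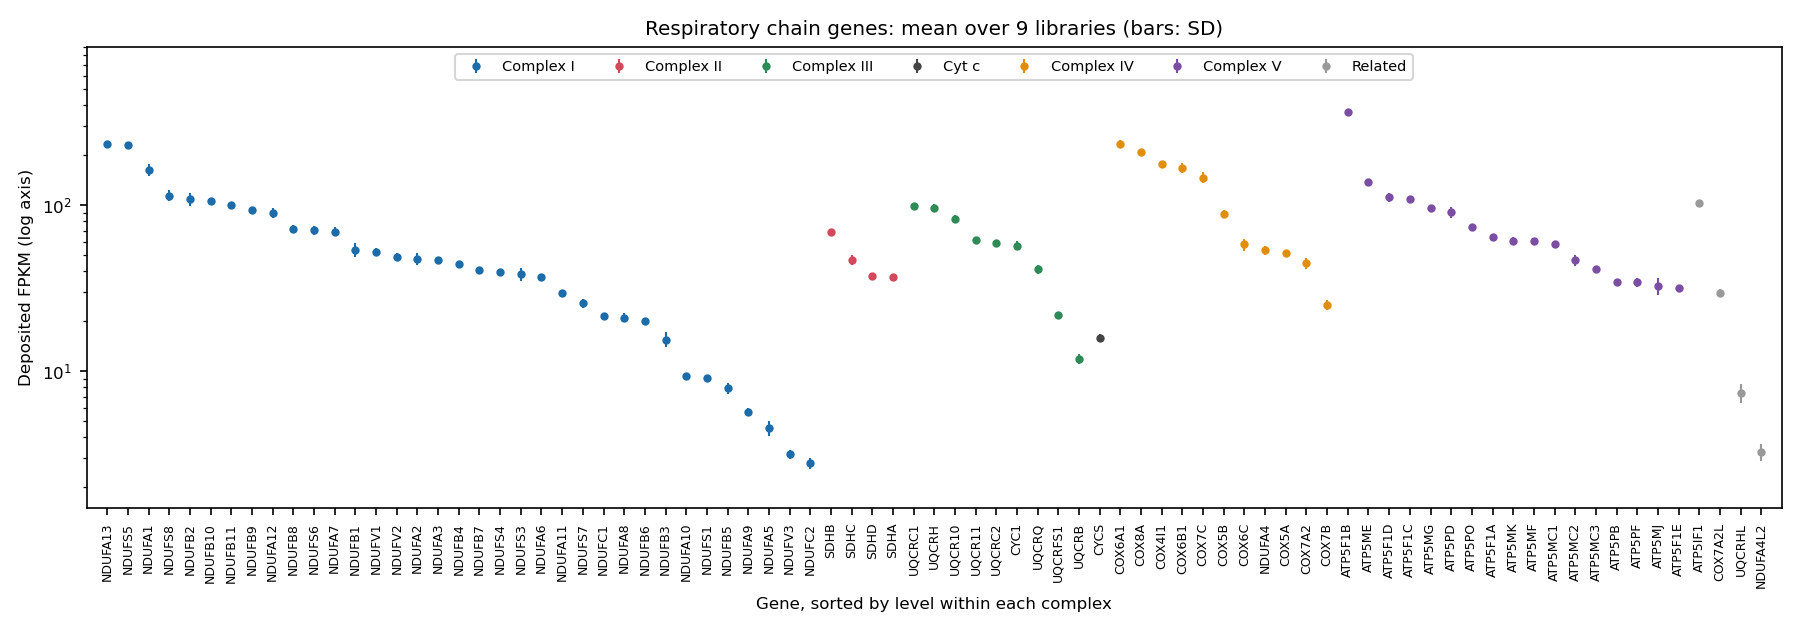
Mean FPKM over the 9 libraries of 81 of the 82 tested genes, by complex, on a log axis; bars are the SD. Levels within complex I span from 2.79 (NDUFC2) to 233 FPKM (NDUFA13), and ATP5F1B is highest of all at 366 FPKM.

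In complex I the highest levels were those of the accessory subunits NDUFA13 (233 ± 10.9 FPKM, SD, n = 9), NDUFS5 (232 ± 9.004 FPKM) and NDUFA1 (164 ± 13.1 FPKM). NDUFA13 and NDUFS5 do not differ beyond their spread. Among the core subunits of the matrix arm, which hold the flavin and the iron-sulphur clusters, NDUFS1 had 9.16 FPKM and NDUFS8 114 FPKM. In CPM, which is not divided by length, their order was the reverse, with NDUFS1 at 108 and NDUFS8 at 84.3. The accessory subunit NDUFV3 was low at 3.16 FPKM. In complex II the iron-sulphur subunit SDHB was highest (69.3 ± 2.42 FPKM), followed by the membrane anchor SDHC (47.0 ± 3.54 FPKM). The anchor SDHD (37.3 ± 1.64 FPKM) and the flavoprotein SDHA (37.2 ± 1.39 FPKM) do not differ beyond their spread.

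In complex III the core protein UQCRC1 (99.0 ± 3.45 FPKM) and the hinge protein UQCRH (96.4 ± 5.23 FPKM) were highest and do not differ beyond their spread, and UQCR10 followed with 83.3 ± 4.56 FPKM. The Rieske iron-sulphur protein UQCRFS1 had 21.99 FPKM and UQCRB 11.9 FPKM. In complex IV, COX6A1 (236 ± 11.9 FPKM), COX8A (211 ± 6.10 FPKM) and COX4I1 (178 ± 7.10 FPKM) led, and COX7A2 (44.7 FPKM) and COX7B (25.3 FPKM) were lowest. In complex V, ATP5F1B was followed by ATP5ME (137 ± 6.72 FPKM) and ATP5F1D (112 ± 6.99 FPKM), and ATP5MJ (32.7 FPKM) and ATP5F1E (31.6 FPKM) were lowest. ATP5IF1, the inhibitor that binds ATP synthase when the proton gradient collapses, stood at 104 ± 4.10 FPKM.

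This order rests on the gene lengths in the deposited values. For 23 of the 82 genes the length they imply differs by over 1.5 times from that of the principal transcript in GENCODE release 29, being longer in 12 and shorter in 11. With the principal length, chosen as an alternative after seeing the data, the median per kilobase was 77.1 in complex III and 61.5 in complex IV, so that their order turned, and COX4I1 came before COX6A1 and COX8A. Complex I (42.8) then came below complex II (49.6), where SDHA was highest and SDHC lowest. In complex I the 3 highest became NDUFS5, NDUFA11 and NDUFA13, in that order, and NDUFA1 left them. UQCRC1 left the 3 highest of complex III. COX5A took the place of COX7A2 beside COX7B at the bottom of complex IV. In complex V, ATP5F1C took the place of ATP5F1D among the 3 highest, and ATP5PB and ATP5MC3 became the lowest. ATP5F1B, NDUFC2, UQCRB and COX7B kept their places at the top or the bottom of their complexes with either length. The SDs and spreads given for levels are over libraries and do not cover the choice of length.

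Ratios between partners varied little over libraries where both were abundant. The FPKM ratio of ATP5F1A to ATP5F1B, the alpha and beta subunits that alternate in the catalytic head, was 0.175 ± 0.00375 (SD, n = 9), and that of ATP5F1B to the stalk subunit ATP5F1C was 3.36 ± 0.147. ATP5MC1, ATP5MC2 and ATP5MC3 code for the same mature c-ring protein, and they gave 40.0% ± 1.54, 31.8% ± 1.70 and 28.2% ± 0.668 of the summed FPKM of the 3. These shares rest on the deposited lengths. With the principal length the 3 genes stood at 54.9, 61.6 and 20.9 CPM per kilobase, so that ATP5MC2 came first. NDUFA4, a complex IV subunit, exceeded its paralogue NDUFA4L2, known as a hypoxia-induced gene, by 16.7 ± 2.52 times, with libraries from 12.6 to 21.3. COX7A2 exceeded COX7A2L, a factor for supercomplexes of complexes III and IV, by 1.503 ± 0.103 times. With the principal length they stood farther apart, at 61.5 and 24.9 CPM per kilobase. The SDs of these ratios are over libraries and do not cover the choice of length.

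UQCRH exceeded its near-identical copy UQCRHL by 13.2 ± 1.53 times, but 29.4% of the 50-base words of the UQCRH transcript also occur in transcripts of UQCRHL, so reads may be split between them. Over the whole list, 33 genes share over 10% of such words with another gene on either strand and 6 share over 50% (ATP5PO, NDUFA7, NDUFA11, NDUFB2, NDUFB8 and NDUFV2). The values of those 6 and of UQCRHL are uncertain, since how reads with several matches were counted is not given in the sources used here. Among the other genes over 10%, COX6A1 shares 44.0%, NDUFA13 41.3%, NDUFA1 40.7%, COX8A 27.7% and ATP5ME 27.2%, and their counts may be touched too.

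Insulin at the lower dose left every one of these genes uncalled. In the edgeR quasi-likelihood test with Benjamini-Hochberg adjustment, 0 of 82 genes differed from control at an adjusted p under 0.05, as did 0 of all 12665 tested genes (0%), and the smallest adjusted p among the 82 was 0.764. At an unadjusted p under 0.05 there were 5 of 82 (6.1%), COX6A1, UQCRQ, NDUFA5, NDUFV1 and COX8A, against 6.08% of all tested genes. DESeq2 gave 0 called genes among the 82 and 3 (3.66%) at that unadjusted level, against 3.59% of all genes. The log2 difference had a median of 0.02 over the 82 genes, with 50 above 0, and a median of 0.00 over all tested genes, with 51.9% above 0. When lower dose replicate 1 was left out, the median was 0.04 with 62 of 82 above 0, against 0.00 and 50.6% of all tested genes.

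The intervals show how large a difference these libraries leave room for. The 95% interval lay within 0.32 log2 units of 0 for 78 of the 82 genes and within 1.5-fold in either direction for all 82, against 70.2% and 87.5% of all tested genes. These shares compare unlike levels, since 79 of the 82 but only 9492 of all 12665 tested genes averaged above 10 CPM. The 4 with intervals wider than 0.32 log2 units were ATP5MJ, NDUFA4L2, NDUFA5 and UQCRHL. The interval of NDUFA4L2 reached from 0.694-fold to 1.15-fold.

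All 3 lower-dose libraries lay above all 3 controls for ATP5ME, COX6A1, COX8A, NDUFB10, NDUFV1 and UQCRQ, which is 6 of 82 (7.32%) where 5.1% of all tested genes did so. They lay below all controls for NDUFV2 alone, 1 of 82 (1.22%) against 5.61% of all tested genes.

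COX6A1, a structural subunit of complex IV on chromosome 12 (120438113 to 120440730, GRCh38.p14), had 119, 121 and 121 CPM in controls 1 to 3, 138, 128 and 135 CPM at the lower dose and 128, 129 and 120.1 CPM at the higher dose. The lower-dose libraries were all above the controls, and the higher-dose libraries overlapped both groups. The lower dose stood above control by 0.15 ± 0.05 (SE) on the log2 scale, or 1.11-fold with a 95% interval from 1.036 to 1.189, and an adjusted p of 0.764 in the edgeR quasi-likelihood test. Without lower dose replicate 1 the difference was 0.13 ± 0.05, with an adjusted p of 0.681 in edgeR. COX6A1 shares 44.0% of its 50-base words with other genes, among them the copy COX6A1P2.

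UQCRQ, a small ubiquinone-binding subunit of complex III on chromosome 5 (132866642 to 132868847), whose promoter stretch with the ETS word is printed above, had 64.1, 57.4 and 60.3 CPM in controls, 65.7, 69.3 and 70.6 CPM at the lower dose and 67.6, 65.1 and 62.2 CPM at the higher dose. The lower-dose libraries did not overlap the controls, and 1 control was above 1 higher-dose library. The difference from control was 0.18 ± 0.06 at the lower dose (adjusted p = 0.764, edgeR) and 0.21 ± 0.06 without lower dose replicate 1 (adjusted p = 0.604, edgeR). The interval of the first reached from 1.04-fold to 1.232-fold.

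NDUFV1, the flavin-bearing subunit of complex I that accepts electrons from NADH, and NDUFV2, the iron-sulphur subunit beside it, stood on opposite sides of control at the lower dose. NDUFV1 had 77.7, 76.3 and 75.4 CPM in controls, 85.0, 81.6 and 83.3 CPM at the lower dose and 80.3, 87.1 and 74.0 CPM at the higher dose. NDUFV2 had 61.7, 57.8 and 63.2 CPM in controls, 54.8, 57.6 and 55.8 CPM at the lower dose and 58.5, 61.6 and 63.4 CPM at the higher dose. Neither set of lower-dose libraries overlapped the controls, although for NDUFV2 the highest lower-dose and lowest control libraries, at 57.6 and 57.8 CPM, nearly touched. The log2 differences were 0.12 ± 0.06 for NDUFV1 and -0.12 ± 0.06 for NDUFV2 (adjusted p = 0.792 for both, edgeR), and 0.11 and -0.10 without lower dose replicate 1 (adjusted p = 0.774 and adjusted p = 0.792, edgeR). NDUFV2 shares 82% of its 50-base words with a noncoding gene that overlaps it, so its counts are uncertain.

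**Figure D2:**
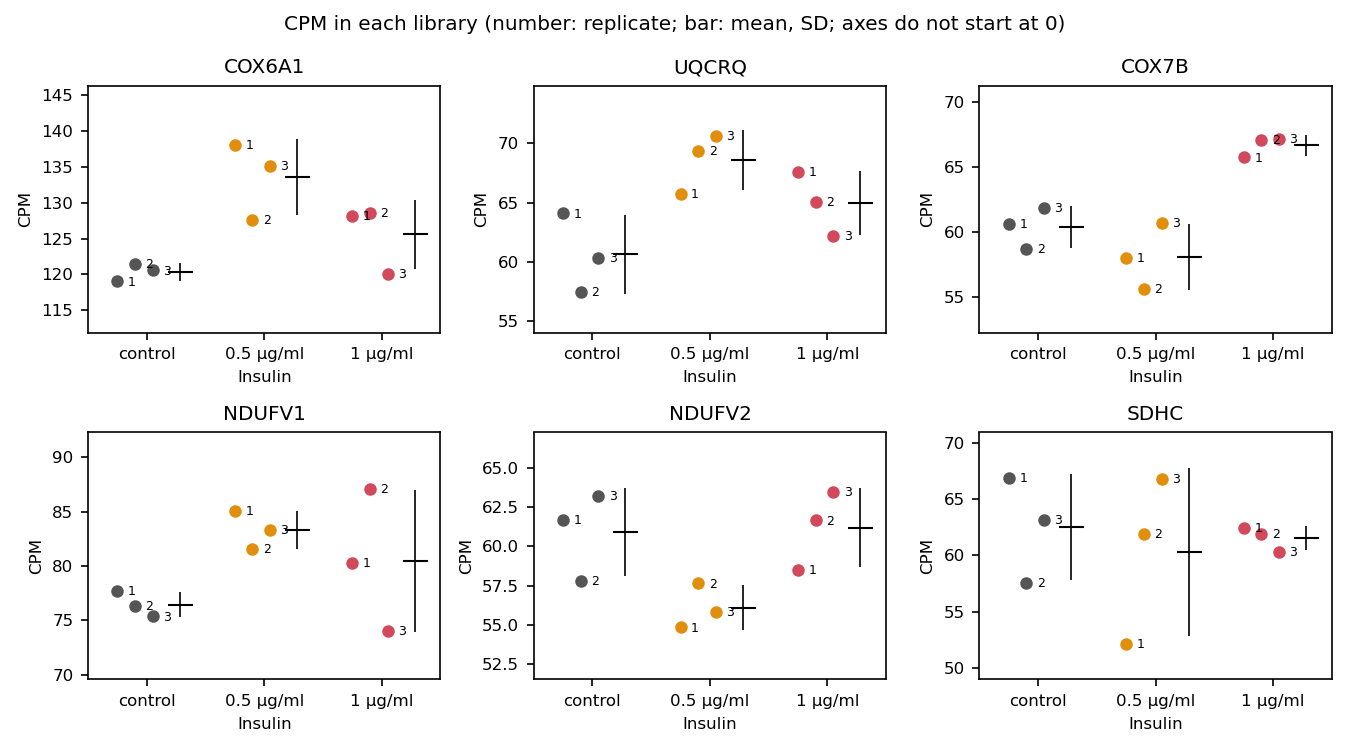
CPM of COX6A1, UQCRQ, COX7B, NDUFV1, NDUFV2 and SDHC in each of the 9 libraries; points are libraries, lines and bars the mean and SD of 3, and axes do not start at 0. COX6A1, UQCRQ and NDUFV1 at the lower dose lie above the controls, NDUFV2 lies below them, and COX7B separates the higher dose from both other groups.

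COX8A, a structural subunit of complex IV, had 104, 99.7 and 100.1 CPM in controls and 107, 108 and 109 CPM at the lower dose, a log2 difference of 0.10 ± 0.05 (adjusted p = 0.792, edgeR) that was also 0.10 without lower dose replicate 1. The 2 groups did not overlap, and its ETS word is among the sequences printed above. ATP5ME, the e subunit of ATP synthase, had 42.2, 39.8 and 41.2 CPM in controls and 42.7, 43.2 and 45.1 CPM at the lower dose, a difference of 0.09 ± 0.06 (0.10 ± 0.07 without lower dose replicate 1). At the higher dose it had 38.8, 38.8 and 43.0 CPM, so 2 of its libraries were below every control. ATP5PF, a peripheral stalk subunit and the other complex V gene of smallest p, had 52.1, 49.9 and 55.5 CPM in controls and 45.1, 52.6 and 48.9 CPM at the lower dose, which overlap. Its difference was -0.10 ± 0.06, and -0.05 ± 0.06 without lower dose replicate 1.

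NDUFA5, an accessory subunit of the matrix arm, had 30.5, 34.3 and 38.3 CPM in controls, 26.7, 32.2 and 31.1 CPM at the lower dose and 29.7, 31.3 and 32.9 CPM at the higher dose. The groups overlap, and lower dose replicate 1 was lowest of all 9. Its log2 difference of -0.20 ± 0.08 (adjusted p = 0.792, edgeR) was -0.12 ± 0.08 without that library (adjusted p = 0.822, edgeR). For ATP5MJ the difference was 0.14 ± 0.10 with that library and 0.25 ± 0.09 without it (adjusted p = 0.679, edgeR). For ATP5PD, a peripheral stalk subunit, it was 0.07 ± 0.08 with and 0.17 ± 0.07 without (adjusted p = 0.724, edgeR).

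Insulin at the higher dose likewise left all 82 genes uncalled. In the edgeR quasi-likelihood test 0 of 82 genes and 0% of all tested genes had a Benjamini-Hochberg adjusted p under 0.05. There were 2 of 82 (2.44%), COX7B and NDUFA2, at an unadjusted p under 0.05, against 2.35% of all tested genes. DESeq2 gave 1 (1.22%) at that level, against 1.08% of all genes, and 0 called. The median log2 difference was 0.03 over the 82 genes, with 58 above 0, and 0.00 over all tested genes, with 49.8% above 0. Both comparisons use the same control libraries, so the 2 medians are not separate evidence of a direction. Intervals lay within 0.32 log2 units of 0 for 77 and within 1.5-fold for all 82, against 72.9% and 87.9% of all tested genes, which again compares unlike levels.

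The higher-dose libraries were all above the controls for ATP5IF1, COX7B, NDUFA10, SDHB and UQCRHL, 5 of 82 (6.1%) against 3.81% of all tested genes, and all below for 0 of 82, against 3.92%. No gene of the 82 had all 6 insulin libraries above all controls, which 0.782% of all tested genes had, and none had all 6 below, which 0.932% had.

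COX7B, a small complex IV subunit on chromosome X (77899468 to 77907376), had 60.6, 58.7 and 61.9 CPM in controls, 58.0, 55.6 and 60.7 CPM at the lower dose and 65.7, 67.1 and 67.2 CPM at the higher dose. The higher-dose libraries lay above the other 6. Their mean exceeded control by 0.14 ± 0.05 on the log2 scale (adjusted p = 0.9999, edgeR) and the lower dose by 0.20 ± 0.05 (adjusted p = 0.850, edgeR), with a 95% interval from 0.08 to 0.31. Without lower dose replicate 1 the latter was 0.20 ± 0.06 (adjusted p = 0.365, edgeR). Only 2.73% of its 50-base words occur in another gene.

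NDUFA2, an accessory subunit of complex I, had 33.2, 26.6 and 32.2 CPM in controls, 34.2, 32.8 and 35.1 CPM at the lower dose and 32.8, 37.1 and 33.5 CPM at the higher dose, a log2 difference of 0.17 ± 0.08 between the higher dose and control that was 0.08 without control 2 and 0.11 without higher dose replicate 2. Control 2 was the lowest of all 9 and 1 higher-dose library lay below a control. NDUFA10, another accessory subunit, had 78.6, 77.7 and 78.4 CPM in controls, 79.7, 78.0 and 74.3 CPM at the lower dose and 80.8, 83.0 and 83.8 CPM at the higher dose, above control by 0.08 ± 0.05. SDHB had 70.2, 70.9 and 68.7 CPM in controls and 71.9, 72.4 and 71.1 CPM at the higher dose, which did not overlap but stood only 0.04 ± 0.05 apart. ATP5IF1 had 56.4, 58.4 and 58.8 CPM in controls, 62.4, 58.0 and 64.0 CPM at the lower dose and 58.9, 62.0 and 60.9 CPM at the higher dose, with differences of 0.09 ± 0.06 (0.08 without lower dose replicate 1) and 0.07 ± 0.06. The other genes of smallest p in their complexes differed from control at the higher dose by -0.14 (NDUFA5), 0.10 (UQCRQ), 0.07 (UQCR10), 0.06 (COX6A1), 0.14 (ATP5MJ) and 0.07 (ATP5F1C) log2 units.

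The 2 doses were also compared with each other. In the edgeR quasi-likelihood test 0 of 82 genes and 0% of all tested genes had a Benjamini-Hochberg adjusted p under 0.05, and 4 of 82 (4.88%), COX7B, NDUFV2, UQCRHL and NDUFA13, had an unadjusted p under 0.05, against 5.64% of all tested genes. DESeq2 gave 0 called and 1 (1.22%) at that level, against 3.05% of all genes. The higher dose lay above the lower dose in all libraries for COX7B, NDUFA10, NDUFV2 and UQCRHL, 4 of 82 against 5.85% of all tested genes, and below it for ATP5F1E, COX8A, NDUFA13 and NDUFB8, also 4 of 82 (4.88%) against 6.31%. UQCRHL was the only gene of the 82 whose interval went past 1.5-fold in any of the 3 comparisons. Its higher-dose and lower-dose libraries held 4.65, 4.62 and 4.29 CPM and 3.77, 3.29 and 3.54 CPM, a log2 difference of 0.35 ± 0.16 (adjusted p = 0.850, edgeR). NDUFA13 had 127, 123 and 130 CPM at the lower dose and 115, 118 and 119 CPM at the higher dose, a difference of -0.11 ± 0.05 (adjusted p = 0.850, edgeR), or -0.10 without lower dose replicate 1 (adjusted p = 0.708, edgeR). For NDUFV2, UQCRQ, UQCRH, COX6A1, ATP5PF and ATP5ME, also of smallest p in their complexes, the differences were 0.13, -0.08, 0.07, -0.09, 0.12 and -0.12. Without lower dose replicate 1 they were 0.11, -0.11, 0.03, -0.06, 0.07 and -0.13, in the same order.

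A single test of any difference among the 3 groups gave 0 of 82 genes, and 0% of all tested genes, at a Benjamini-Hochberg adjusted p under 0.05 in edgeR, with 3 of 82 (3.66%) at an unadjusted p under 0.05 against 4.43% of all. The 3 were COX7B, COX6A1 and UQCRQ, each with an adjusted p of 0.982, and DESeq2 called 0 of the 82 in this test.

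**Figure D3:**
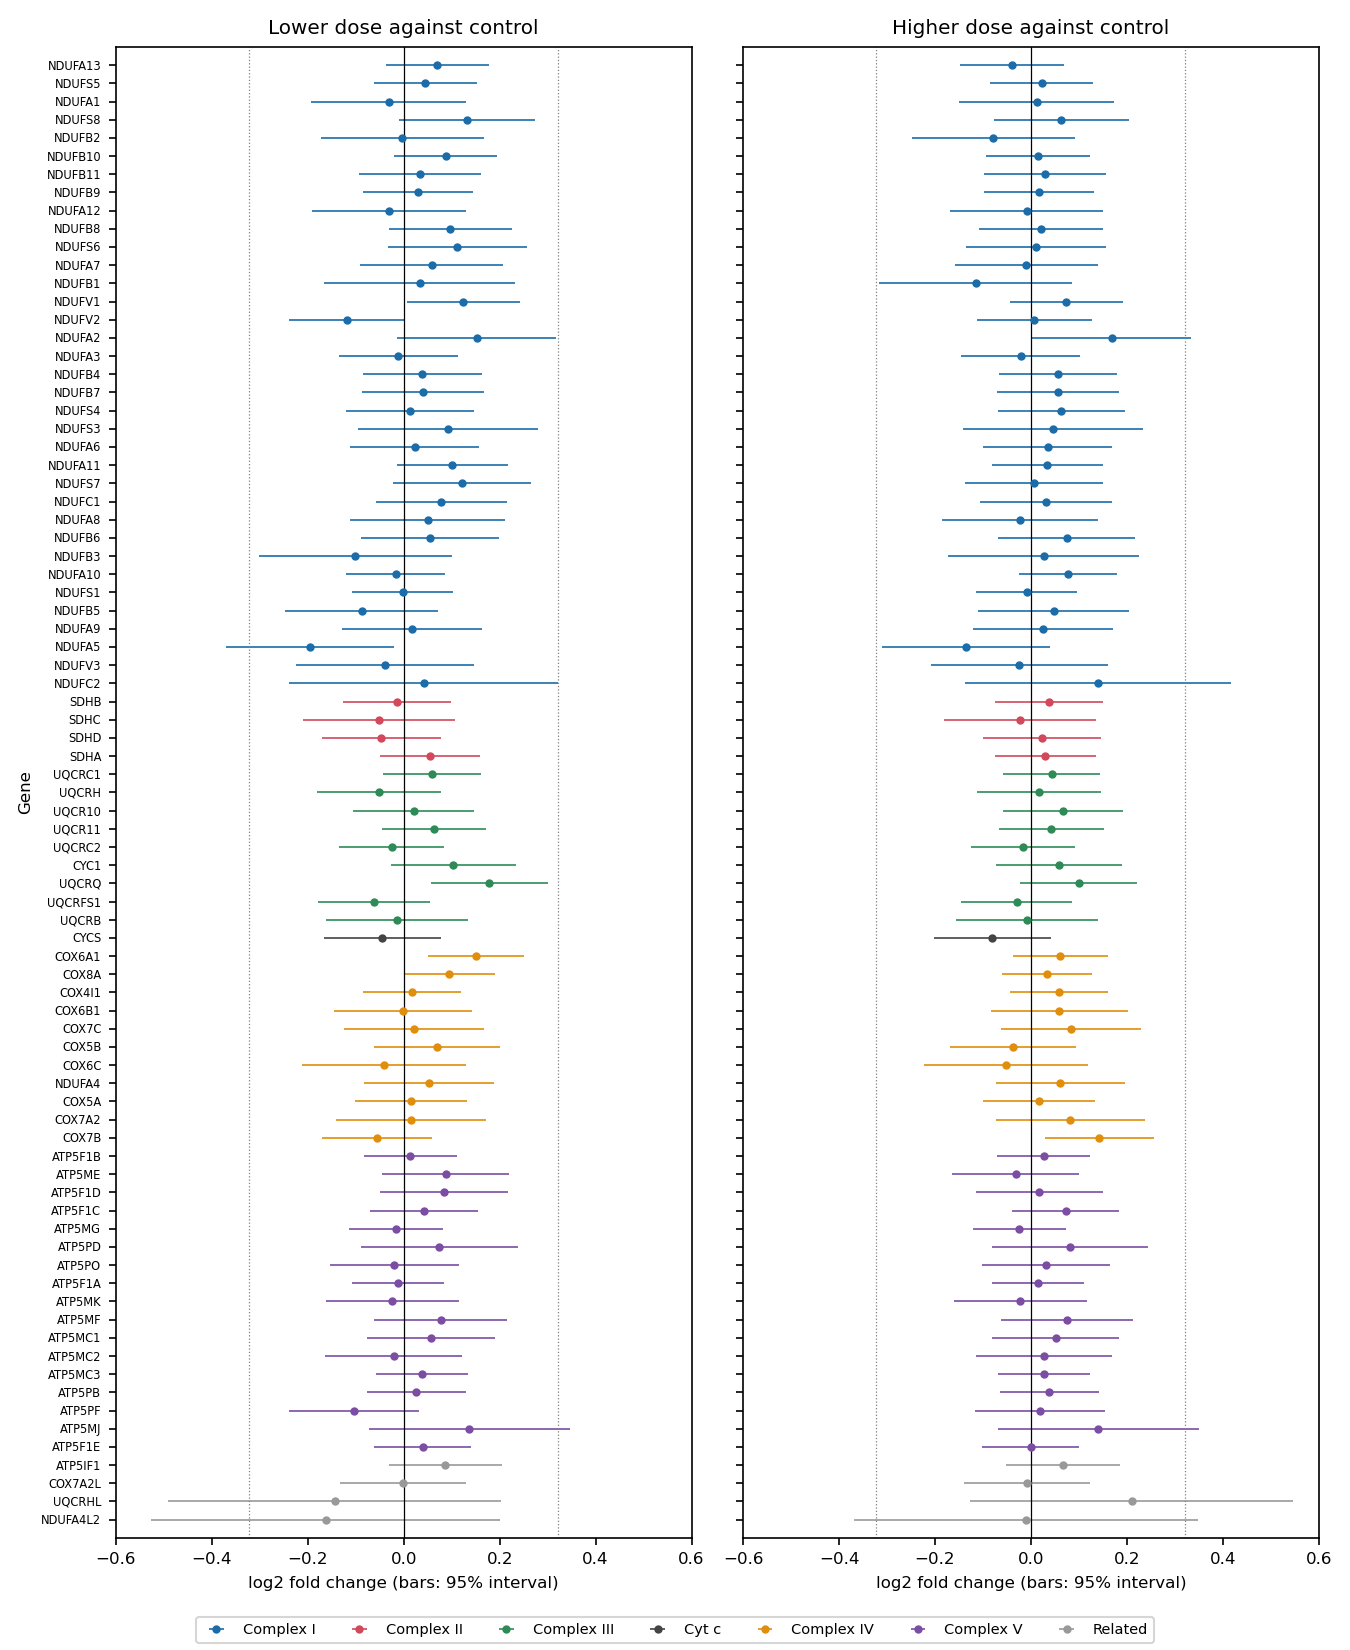
Log2 difference from control of 81 of the 82 tested genes at the lower and the higher dose, by complex, with 95% intervals from the edgeR fit; dotted lines mark 0.32 log2 units. Intervals of 4 genes at the lower dose and 5 at the higher dose cross a dotted line, and the medians of all 82 are 0.02 and 0.03.

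By complex, the medians stayed close to 0. At the lower dose 24 of 36 complex I genes lay above 0 with a median log2 difference of 0.04, 1 of 4 complex II genes with -0.03, 5 of 9 complex III genes with 0.02, 8 of 11 complex IV genes with 0.02 and 11 of 17 complex V genes with 0.04. At the higher dose the counts were 25 of 36 (0.02), 3 of 4 (0.03), 6 of 9 (0.04), 9 of 11 (0.06) and 13 of 17 (0.03). Without lower dose replicate 1, the lower dose gave 27 of 36 (0.03) for complex I, 2 of 4 (0.01) for complex II, 7 of 9 (0.03) for complex III, 10 of 11 (0.08) for complex IV and 14 of 17 (0.04) for complex V. None of these groups held a called gene.

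Complex II is also an enzyme of the citric acid cycle, and its 4 genes are the whole complex. SDHA had 162, 145 and 153 CPM in controls, 166, 152 and 161 CPM at the lower dose and 154, 156 and 160 CPM at the higher dose, with log2 differences of 0.05 ± 0.05 and 0.03 ± 0.05. SDHC had 66.9, 57.5 and 63.2 CPM in controls, 52.1, 62.0 and 66.8 CPM at the lower dose and 62.4, 61.9 and 60.3 CPM at the higher dose, with differences of -0.05 ± 0.08 and -0.02 ± 0.08, and the first turned to 0.04 ± 0.07 without lower dose replicate 1. SDHD had 55.2, 52.3 and 57.8 CPM in controls, 50.7, 54.1 and 55.2 CPM at the lower dose and 56.5, 54.6 and 56.8 CPM at the higher dose, with differences of -0.05 ± 0.06 and 0.02 ± 0.06. Without that library the lower-dose difference was 0.02 for SDHA, -0.05 for SDHB and -0.01 for SDHD, where SDHB had -0.01 with it. SDHA, SDHC and SDHD overlapped in every comparison, and the lowest values of SDHC and SDHD were those of lower dose replicate 1.

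CYC1, the haem-bearing cytochrome c1 of complex III, had 105, 95.5 and 96.1 CPM in controls, 115, 101 and 103 CPM at the lower dose and 105, 109 and 94.2 CPM at the higher dose, with differences of 0.10 ± 0.06 and 0.06 ± 0.06. The first was 0.04 ± 0.06 without lower dose replicate 1. CYCS, the carrier between complexes III and IV and also a trigger of apoptosis once outside mitochondria, had 93.8, 83.0 and 89.7 CPM in controls, 84.6, 88.9 and 84.9 CPM at the lower dose and 90.7, 81.8 and 79.5 CPM at the higher dose, with differences of -0.04 ± 0.06 (-0.03 without lower dose replicate 1) and -0.08 ± 0.06. The groups overlap for both genes. Among the core subunits, NDUFS1, UQCRC1, UQCRC2 and UQCRFS1 had log2 differences between -0.06 and 0.06 at both doses, and NDUFS3, NDUFS7 and NDUFS8 had 0.09 ± 0.09, 0.12 ± 0.07 and 0.13 ± 0.07 at the lower dose and 0.05, 0.01 and 0.06 at the higher dose. Without lower dose replicate 1 the lower-dose values were 0.12 ± 0.10 for NDUFS3, 0.03 ± 0.06 for NDUFS7 and 0.02 ± 0.05 for NDUFS8, and UQCRC2 turned from -0.03 to 0.01. NDUFS8 had 80.9, 83.4 and 77.3 CPM in controls and 101, 83.4 and 80.3 CPM at the lower dose, so that 1 library, lower dose replicate 1, stood apart.

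The mean log2 deviation of the 82 genes from their own averages gave each library a value. It was 0.03, -0.05 and -0.02 in controls 1 to 3, -0.03, 0.00 and 0.04 at the lower dose and -0.01, 0.03 and 0.02 at the higher dose. The 3 groups overlap, and controls 1 and 2 lay farther apart than any pair of group means. In control 2 only 13 of the 82 genes were above their own mean, against 62 of 82 in lower dose replicate 3.

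**Figure D4:**
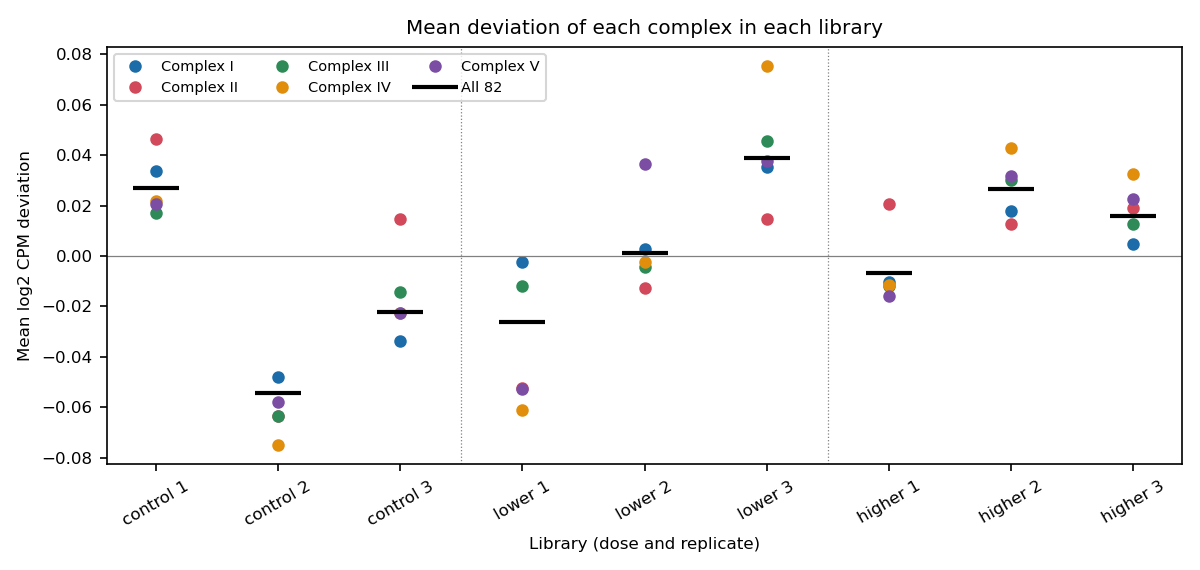
Mean log2 deviation from the 9-library average in each library, for each complex (points) and for all 82 genes (black bar). Control replicate 2 is lowest at -0.05 and lower dose replicate 3 highest at 0.04, and the groups overlap.

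Pearson's r between a gene's log2 CPM and the mean of the other tested genes of the set, over 9 libraries, had a median of 0.384 and was above 0 for 68 of 82. It was highest for COX4I1 (0.9), ATP5F1B (0.889), COX7C (0.852), ATP5F1A (0.850) and NDUFA9 (0.841), and lowest for ATP5F1D (-0.36), SDHB (-0.392), NDUFA7 (-0.442), NDUFV3 (-0.476) and NDUFA3 (-0.645). These values share depth and composition between genes and carry no test. They include lower dose replicate 1, the library that stands apart, and values without it are not given. The coefficient of variation over the 9 libraries had a median of 5.31% for the 79 genes of the set above 10 CPM, against 5.68% for the 9492 tested genes above 10 CPM.

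Lower dose replicate 1 had the widest spread among the 82 genes, with an SD of their log2 deviations of 0.123, against 0.058 to 0.090 in the others. Over all tested genes that library was also the widest, with an SD of 0.1916, against 0.1595 to 0.1802 in the others. Among the 82 genes its extremes were NDUFB3 (-0.27), a membrane arm subunit, and NDUFS8 (0.26), an iron-sulphur subunit. The 21 genes of highest GC content, from 54.7% up, averaged 0.07 above their own mean there, and the 21 of lowest GC content, up to 43.6%, averaged -0.10. The GC content of the 82 transcripts ran from 36.4% to 69.6% with a median of 48.3%. The first principal component of the 82 genes held 33.4% of their variance and set that library, at 1.02, apart from the next, control replicate 2, at 0.436.

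**Figure D5:**
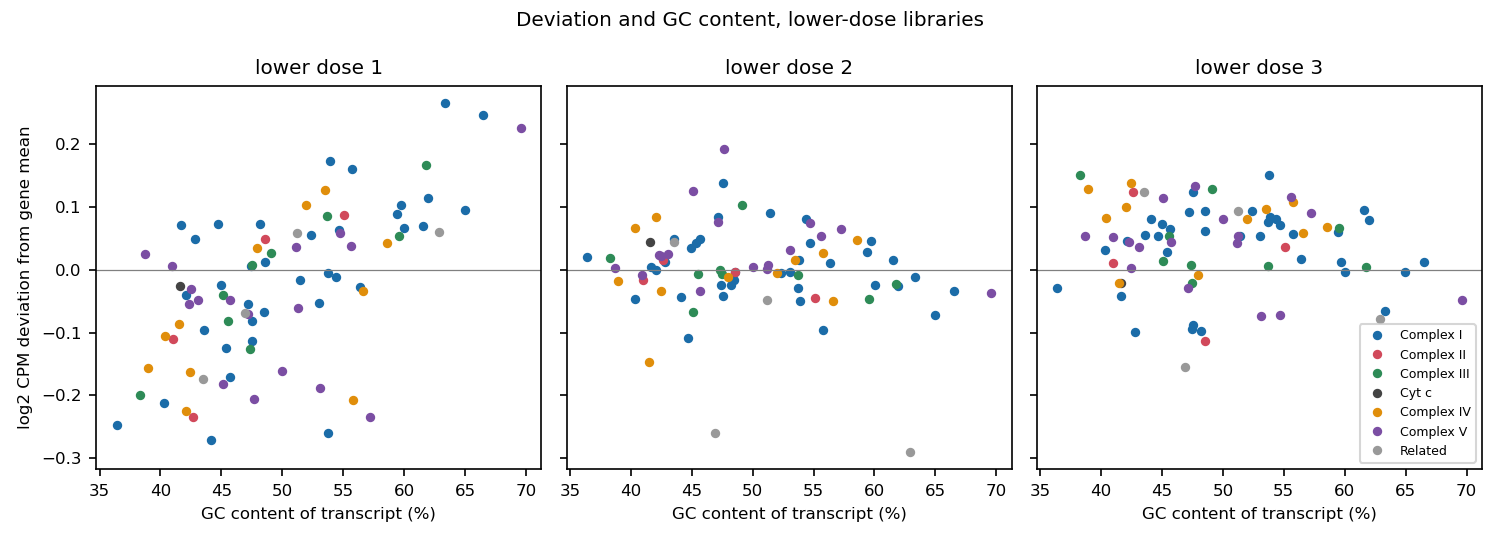
Log2 deviation of each of the 82 genes from its own mean against the GC content of its transcript, in the 3 lower-dose libraries. In replicate 1 the deviations climb with GC content (r = 0.611), and in replicates 2 and 3 r is -0.165 and -0.093.

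The other genes of the pathway gave no call either. Of 57 tested assembly factors, which build the complexes without staying in them, 33 lay above 0 at the lower dose (median log2 difference 0.04) and 36 at the higher dose (0.02), with 0 called in the edgeR test. At an unadjusted p under 0.05 there were 2 at the lower and 1 at the higher dose, against 6.08% and 2.35% of all tested genes. These were COX14 (0.22 ± 0.09) and NDUFAF3 (0.14 ± 0.05), factors of complexes IV and I, at the lower dose, and SDHAF1 (-0.37 ± 0.16), a factor of complex II, at the higher dose. Without lower dose replicate 1, 34 of the 57 lay above 0 at the lower dose (median 0.02), with COX14 at 0.25 and NDUFAF3 at 0.14. In that fit 5 of the 57 (8.77%) had an unadjusted p under 0.05, against 6.68% of all tested genes. DESeq2 called 0 genes of the whole table in either comparison. Of 17 regulators of mitochondrial biogenesis, 8 and 7 lay above 0 (medians -0.02 and -0.01; 4 of 17 and -0.03 for the lower dose without that library) and 0 had an unadjusted p under 0.05 at either dose. The factors whose words were searched were all present, NRF1 at 18.7 ± 1.23 CPM, the GABP subunit GABPA at 29.5 CPM and YY1 at 121 CPM, and the coactivator PPARGC1A stood at 6.51 CPM.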

How the data were processed

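RNA-seq was made from 9 libraries of KGN cells in 3 groups of 3, assigned by the treatment in the labels. The authors deposited whole read counts per gene, and deposited FPKM values for the same genes. Per the submitters' processing notes, the build was hg38 and the tools included HTSeq, Trimmomatic and DESeq, with no version. An aligner, a strand setting and a rule for multiply matching reads were not given in the sources used here. Among 11053 genes that reach 50 counts in all libraries, for 11053 the length implied by counts and FPKM was whole within 0.01 bases, so FPKM adds only a length to the counts.

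The 85 genes and the other lists were chosen with earlier results of these data known, so no p was computed over them. Counts were filtered with filterByExpr (minimum count 10, minimum total 15), scaled by TMM and fitted over all 9 libraries with edgeR 4.0.16, and the quasi-likelihood F-test gave two-sided p-values, adjusted by Benjamini-Hochberg over all 12665 tested genes. The common biological coefficient of variation was 5.39%. CPM in the text is scaled by TMM. DESeq2 1.42.0 and limma 3.58.1 served for alternatives, and the fit was tested on simulated counts. GC content and shared words came from GENCODE release 29 transcripts, and positions and promoters from RefSeq on GRCh38.p14. Named genes were, in each comparison, the 2 of smallest p in complexes I, III, IV and V, all of complex II, CYC1, CYCS, ATP5IF1, the core subunits, the 3 of highest and 2 of lowest FPKM in each complex, paralogue pairs, and the 5 most and least like the rest. Genes that did not overlap between groups, and those in intervals or shared words, were named after their values were seen. Total counts of about the same size in every library limit precision to the intervals given, which cover these libraries only. Values of 1 tested gene of the set are not reported here by name and are not drawn, though the gene is part of the counts and medians.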

Additional observations from a re-analysis of the deposited data

How the results depend on the processing

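No gene of the 82 was called under any alternative run: RLE size factors, library totals alone, no count filter (all 85 genes), a filter of 1 CPM in 3 libraries, the 2 groups alone, DESeq2, limma on log2(FPKM + 1) or log2(FPKM + 0.1), the replicate block, and each library left out in turn. The smallest adjusted p of any of these was 0.355 for the lower dose, 0.999 for the higher dose and 0.365 between doses. With the replicate number as a replicate block, 0 of the 82 were called in each comparison, with smallest adjusted p of 0.571, 0.9995 and 0.669 in edgeR. Same-numbered libraries had correlations from -0.0117 to 0.161, with 1 of 9 pairs over 0.1. With the block, 7.67%, 2.71% and 7.04% of all tested genes had an unadjusted p under 0.05 in edgeR, against 6.08%, 2.35% and 5.64% without it. Of the 82 genes it was 7.32%, 2.44% and 4.88%, against 6.1%, 2.44% and 4.88%. Pairs of unlike number are not given for comparison, so whether the numbers pair the libraries was not tested. The median log2 difference of the set was 0.02 for the lower dose, 0.03 for the higher dose and 0.00 between doses, and without 1 library at a time it ran from 0.01 to 0.04, from 0.01 to 0.05 and from -0.02 to 0.02. The 24 differences followed for the genes of smallest p kept their sign in every alternative run. They were picked by p in these same libraries, which favours a stable sign, so this is no separate evidence for them. Of all 82 genes, up to 28 changed sign under an alternative, most of them without lower dose replicate 1 (20 for the lower dose and 28 between doses), and the largest difference that did so was 0.08 log2 units.

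Counts at an unadjusted p under 0.05 rest on single libraries. For the lower dose they ran from 2 to 12 around 5, with 12 (14.6%, against 10.4% of all tested genes in the same fit) without control replicate 1, 9 (11%, against 7.21%) without lower dose replicate 2, and 2 (2.44%, against 3.24%) without control replicate 3. For the higher dose they ran from 0 to 8 around 2, with 8 (9.76%, against 3.84%) without control replicate 1, 5 (6.1%, against 2.73%) without higher dose replicate 1, and 0 (against 1.62%) without control replicate 2. Between doses they ran from 2 to 7 around 4, with 7 (8.54%, against 5.37%) without lower dose replicate 2. With 3 libraries a group and a median SE of 0.06 log2 units per gene, the printed intervals give the sizes of difference that these libraries leave room for. They are intervals of single genes, not adjusted for the number of genes tested, and are not a limit of detection. The 3 genes under the filter hold 22 counts or fewer, and FPKM levels depend on the length used.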

Other observations

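Genes that feed electrons to the chain were present at both doses without a call. Of 13 tested genes of the citric acid cycle outside complex II, 8 lay above 0 at the lower dose (median log2 difference 0.02; 6 and -0.01 without lower dose replicate 1) and 11 at the higher dose (0.03). DLST, a subunit of the 2-oxoglutarate dehydrogenase complex, stood 0.10 ± 0.04 above control at the lower dose (0.10 without that library), and SUCLG1, a subunit of succinyl-CoA ligase, 0.13 ± 0.06 higher at the higher than at the lower dose (0.12 without that library). Of 10 genes of the pyruvate dehydrogenase complex and its regulators, 4 lay above 0 at the lower dose (median -0.04; 3 and -0.01 without lower dose replicate 1) and 5 at the higher dose (0.00). In the edgeR quasi-likelihood test 0 of these 23 genes had a Benjamini-Hochberg adjusted p under 0.05, and DESeq2 called 0 genes in either comparison. At an unadjusted p under 0.05 in edgeR there was 1 for the lower dose and 0 for the higher dose, against 6.08% and 2.35% of all tested genes.

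NDUFAB1, the complex I subunit that the gene-name rule leaves out, stood at 12.1 ± 0.817 CPM (SD, n = 9), with a log2 difference of 0.09 ± 0.10 at the lower dose (0.11 without lower dose replicate 1) and 0.06 ± 0.10 at the higher dose.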
